A study of Mus musculus with 12 samples.

Results

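Acyl-CoA synthetases were followed across the livers of 12 suckling mouse pups, 6 Ppara-/- and 6 Ppara+/+. The list held 10 genes, grouped by family name and by the length of the fatty acid that the enzyme handles: Acsl1, Acsl3, Acsl4 and Acsl5 for long chains, Acsm1, Acsm3 and Acsm5 for medium chains, Acss1 and Acss2 for short chains, and Acsf2. Of these, 8 of 10 had a probe set of their own, out of 19938 such genes on the array, and where a gene had several, the brightest on average over the 12 arrays was taken. Acsl1 and Acsl3 were not measured in this way. Acsl3 lay on 1 probe set that it shares with Utp14b, so no value is given for it.

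The Ppara-/- pups were homozygous for a null allele of Ppara, the gene of the nuclear receptor PPARα, in the whole body, and the Ppara+/+ pups were wild type. Both were killed at postnatal day 2, each genotype comprised 3 males and 3 females, and 1 array was hybridised per pup with RNA from whole liver. The methods describe crosses of heterozygous parents that gave both genotypes in a litter, and name 3 litters per genotype for the arrays. Whether these were the same litters for both genotypes is not stated. The strain is SV129 in the labels and C57BL/6 in the methods. The labels do not assign pups to litters, so that pups of 1 litter entered the tests as separate replicates. Values are log2 signals, on which each unit is a doubling, and a signal shows differences between pups for 1 probe set but not between genes.

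A fatty acid is inert until an acyl-CoA synthetase joins it to coenzyme A at the expense of ATP. The acyl-CoA can then be oxidised in mitochondria or peroxisomes, built into triacylglycerol and phospholipid, elongated or desaturated, and the synthetases differ in chain length preference and in their place in the cell. In suckling liver the acids come mainly from milk fat. PPARα is a receptor for fatty acids that pairs with RXR and binds direct repeats of AGGTCA spaced by a single base, and many of its target genes encode enzymes of fatty acid oxidation.

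The genotype differences were unequal between Acsl4 and Acsl5, the listed long-chain genes that were measured, and within the medium-chain family. In each family means moved in opposite directions, although the difference of Acsm1 did not pass the test by itself. Acsl1 and Acsl3 are not covered by this contrast. Because of this contrast, the stretches around the start sites of Acsl4 and Acsl5, and of Acsm1 and Acsm3, are shown. They are RefSeq sequences of build GRCm38.p6, 300 bases each, 250 before and 50 after the start, read 5′ to 3′ on the gene's own strand. Capitals mark, on either strand, the GC box (GGGCGG), the CCAAT box (CCAAT) and the receptor core motif (AGGTCA). The Acsl4 stretch is at chrX:142390486-142390785 on the minus strand, that of Acsl5 at chr19:55253119-55253418 on the plus strand, that of Acsm1 at chr7:119617562-119617861 on the plus strand and that of Acsm3 at chr7:119760673-119760972 on the plus strand.
Acsl4: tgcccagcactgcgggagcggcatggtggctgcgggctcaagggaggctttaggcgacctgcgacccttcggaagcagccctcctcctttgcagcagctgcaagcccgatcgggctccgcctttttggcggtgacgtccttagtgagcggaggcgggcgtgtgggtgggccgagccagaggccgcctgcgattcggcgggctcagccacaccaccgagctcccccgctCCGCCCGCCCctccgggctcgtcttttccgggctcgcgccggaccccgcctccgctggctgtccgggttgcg
Acsl5: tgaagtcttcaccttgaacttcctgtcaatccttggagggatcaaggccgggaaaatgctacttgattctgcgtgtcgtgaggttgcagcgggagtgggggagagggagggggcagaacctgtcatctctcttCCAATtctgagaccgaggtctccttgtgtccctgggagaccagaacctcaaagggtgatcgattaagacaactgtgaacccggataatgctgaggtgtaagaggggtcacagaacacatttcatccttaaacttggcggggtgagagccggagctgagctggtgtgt
Acsm1: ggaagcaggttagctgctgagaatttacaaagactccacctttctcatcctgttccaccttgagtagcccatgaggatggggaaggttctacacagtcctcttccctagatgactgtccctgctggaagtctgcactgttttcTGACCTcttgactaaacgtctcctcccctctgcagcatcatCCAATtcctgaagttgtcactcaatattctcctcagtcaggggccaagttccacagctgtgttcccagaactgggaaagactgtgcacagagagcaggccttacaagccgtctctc
Acsm3: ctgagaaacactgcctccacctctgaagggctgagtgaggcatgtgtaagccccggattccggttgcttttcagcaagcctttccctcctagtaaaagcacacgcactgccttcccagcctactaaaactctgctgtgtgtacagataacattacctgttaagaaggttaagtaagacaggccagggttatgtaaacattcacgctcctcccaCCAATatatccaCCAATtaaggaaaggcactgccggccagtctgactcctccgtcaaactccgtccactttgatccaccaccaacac

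The Acsl4 stretch is rich in G and C, at 71.7%, against 53% for Acsl5, 50.7% for Acsm1, 50% for Acsm3 and a median of 52.7% over all 32851 promoters in the RefSeq table. It holds 2 GC boxes that share bases, from position -22 to -17 and from -18 to -13 relative to the start. Acsl5, Acsm1 and Acsm3 hold no GC box and instead carry a CCAAT box, which Acsm3 carries at -37 to -33 and again at -25 to -21. Over the 8 measured genes, 4 had a GC box (Acsl4, Acss1, Acss2 and Acsf2) and 5 had a CCAAT box (Acsl5, Acsm1, Acsm3, Acsm5 and Acss2), which compares with 35.7% and 37.4% of all promoters. The receptor core motif was found in Acsm1 alone, at -107 to -102, and in 16.3% of all promoters. The repeat AGGTCANAGGTCA, which contains that core, was found in 0 of 8, also with up to 2 mismatches, and with that allowance in 3.86% of all promoters. The core of the sterol regulatory element, TCACNCCAC, was found in 0 of 8 and in 1.24% of all promoters, and the E-box CACGTG in Acsm5 and in 7.15%. The TATA box TATAAA was found in 0 of 8 and in 13.6%. These matches describe letters in a 300-base window and not bound sites.

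The arrays resembled each other, with medians of 7.16 to 7.20 and correlations between arrays of 0.989 to 0.996. The Ppara-/- male 6 stood apart most, with a score of 34.3 on the first principal component, against 14.3 for the next highest array, and the lowest mean correlation with the other arrays, 0.9919. The Ppara+/+ female 7 had the next lowest, 0.9928. Ppara itself read 10.21 to 10.33 in Ppara-/- livers and 10.98 to 11.27 in Ppara+/+ livers, a log2 fold change of -0.89 (SE 0.0488, limma adjusted p = 1.2e-06), and whether its probes lie in the deleted stretch was not examined. The signals of 4 sex-linked genes separated the labelled sexes in all 12 pups. Hepatocyte markers (10 of 10 measured) averaged 13.21 to 13.23 in Ppara-/- livers and 13.17 to 13.25 in Ppara+/+ livers, while markers of red cell precursors (9 of 12 measured) averaged 11.34 to 11.71 in Ppara-/- livers and 11.43 to 11.82 in Ppara+/+ livers and had a lower mean in Ppara-/- livers in 9 of 9. Kupffer cell markers averaged 10.30 to 10.45 in Ppara-/- livers and 10.03 to 10.43 in Ppara+/+ livers, with 11 of 11 genes higher in the mean, and endothelial markers averaged 10.30 to 10.42 in Ppara-/- livers and 10.15 to 10.35 in Ppara+/+ livers, with 9 of 9 higher. None of these marker genes passed the test by limma, while 8 red cell precursor genes, 9 Kupffer cell genes and 5 endothelial genes had an unadjusted p under 0.05 in the direction given. Stellate cell markers averaged 9.85 to 9.97 in Ppara-/- livers and 9.66 to 9.95 in Ppara+/+ livers, granulocyte markers 11.22 to 11.42 in Ppara-/- livers and 11.14 to 11.34 in Ppara+/+ livers, and in each list 3 of 8 genes were higher at an unadjusted p under 0.05. Of 5 measured cholangiocyte markers, which averaged 7.40 to 8.03 in Ppara-/- livers and 7.31 to 7.73 in Ppara+/+ livers, 0 were under it by limma. Over all genes, 7.89% were lower and 9.27% higher at an unadjusted p under 0.05, 17.2% in all. In bulk liver, fewer cells of a type and less RNA per cell cannot be told apart.

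Of the 8 measured synthetases, 3 were lower in Ppara-/- livers (Acsl5, Acsm3 and Acsf2) and 1 was higher (Acsl4) at an adjusted p under 0.05, from limma with genotype and sex as terms and p-values adjusted over all 35556 probe sets (Benjamini-Hochberg). Over all genes, 1.12% were lower and 1.99% higher by the same rule. The same 3 and 1 genes were those whose genotypes did not overlap, which held in that direction for 1.43% of all genes below and 2.88% above. All 4 differences were small: none of the 8 genes passed the test with a linear change above 1.3-fold, which 1.27% of all genes did. The median log2 fold change of the 8 genes was -0.10, against -0.01 over all genes, and the median of its size was 0.22, against 0.06. Without the Ppara-/- male 6 and the Ppara+/+ female 7, the arrays with the lowest mean correlations, the log2 fold change was 0.22 for Acsl4, -0.19 for Acsl5, -0.35 for Acsm3 and -0.22 for Acsf2, with limma adjusted p values of 0.0189, 0.0257, 0.0194 and 0.0833 in that order.

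**Figure D1:**
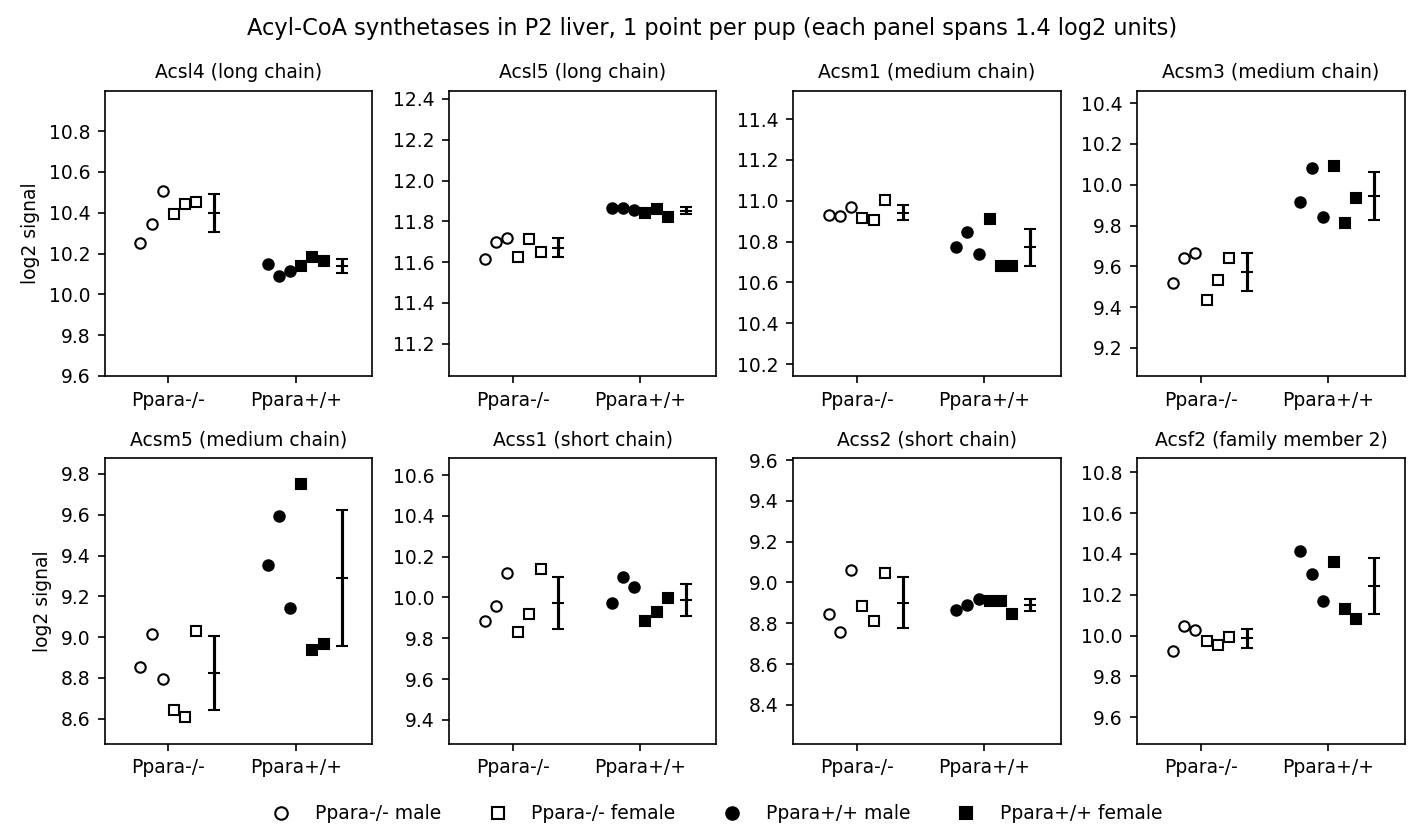
Log2 signal of the 8 measured acyl-CoA synthetases in each pup (vertical axes, each spanning 1.4 log2 units), Ppara-/- livers as open and Ppara+/+ livers as filled symbols, circles for males and squares for females, with mean and SD (n = 6) as bars. All 6 Ppara-/- pups lie above all Ppara+/+ pups for Acsl4 and below them for Acsl5, Acsm3 and Acsf2, and the genotypes overlap for the other genes.

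Acsl4 prefers arachidonic acid and other polyunsaturated acids and feeds them into membrane phospholipids. Its probe set (10607089, a gene of the X chromosome) read a lowest, median and highest value of 10.25, 10.42 and 10.51 in Ppara-/- livers, against 10.09, 10.15 and 10.19 in Ppara+/+ livers. Every Ppara-/- pup was above every Ppara+/+ pup, the nearest being the Ppara-/- male 4. The means were 10.40 ± 0.09 in Ppara-/- and 10.14 ± 0.03 in Ppara+/+ livers (SD, n = 6 each), which is a log2 fold change of 0.26 (95% interval 0.16 to 0.35), or 1.20-fold, with a limma adjusted p of 0.0079. The difference was 0.27 in females and 0.25 in males, and male minus female was -0.05 over both genotypes. Markers of Kupffer cells, endothelium, stellate cells and granulocytes were also higher in the mean in Ppara-/- livers, and their part in the result was not tested.

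Acsl5 lies on mitochondria and endoplasmic reticulum and is prominent in liver and intestine, where it activates dietary long-chain acids. It read 11.61, 11.67 and 11.72 (lowest, median, highest; probe set 10464045) in Ppara-/- livers and 11.82, 11.86 and 11.87 in Ppara+/+ livers. The Ppara+/+ pups lay within a narrow band, and all Ppara-/- pups lay under it. The means were 11.67 ± 0.05 in Ppara-/- and 11.85 ± 0.02 in Ppara+/+ livers, a log2 fold change of -0.18 (95% interval -0.25 to -0.11), or 1.13-fold lower, with a limma adjusted p of 0.0124. The fold change was -0.18 in females and -0.19 in males.

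Acsl4 and Acsl5 moved apart. Within each pup, Acsl4 minus Acsl5 ran from -1.36 to -1.20 in Ppara-/- livers and from -1.78 to -1.66 in Ppara+/+ livers, where the offset carries the brightness of the probes and only its change with genotype is read. The log2 fold changes differed by 0.44 (95% interval 0.38 to 0.50), with an exact two-sided permutation p of 0.00216, the smallest that 924 arrangements allow, and 0.00361 after Benjamini-Hochberg adjustment over the 5 within-family pairs measured. Since all Ppara-/- pups lay above all Ppara+/+ pups for Acsl4 and below them for Acsl5, this p could take no other value. It adds no support to the single-gene fits, and the size of the gap follows from their fold changes.

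Acsm3 encodes a mitochondrial medium-chain synthetase that also takes butyrate and its branched isomer. Its probe set (10556769) read 9.43, 9.59 and 9.67 in Ppara-/- livers, against 9.81, 9.92 and 10.09 in Ppara+/+ livers (lowest, median, highest). No Ppara-/- pup reached the lowest Ppara+/+ pup. The means were 9.57 ± 0.09 in Ppara-/- and 9.95 ± 0.12 in Ppara+/+ livers, a log2 fold change of -0.37 (95% interval -0.51 to -0.24) with a limma adjusted p of 0.0073. This was the largest change among those of the 8 genes that passed the test, just under the 1.3-fold limit, and it was -0.41 in females and -0.34 in males.

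Acsm1 encodes a medium-chain synthetase of the mitochondrial matrix, which also activates benzoate and related acids for coupling to glycine. It went the other way in the mean: it read 10.91, 10.93 and 11.003 (probe set 10556734) in Ppara-/- livers and 10.68, 10.76 and 10.91 in Ppara+/+ livers. The Ppara-/- pups clustered tightly, and the highest Ppara+/+ pup, the female 7, touched their range. The means were 10.94 ± 0.04 in Ppara-/- and 10.77 ± 0.09 in Ppara+/+ livers, a log2 fold change of 0.17 (95% interval 0.07 to 0.27) that did not pass the test (limma adjusted p = 0.0931). Without the Ppara+/+ female 7 the log2 fold change was 0.20, with a limma adjusted p of 0.0190.

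Acsm5, a further mitochondrial member of the family, read 8.61, 8.82 and 9.03 (probe set 10556701) in Ppara-/- livers and 8.94, 9.25 and 9.75 in Ppara+/+ livers. Its spread among Ppara+/+ pups was the widest of the 8 genes. The means were 8.82 ± 0.18 in Ppara-/- and 9.29 ± 0.33 in Ppara+/+ livers, and the log2 fold change of -0.47 (95% interval -0.78 to -0.16) was larger in size than that of Acsm3 but did not pass the test (limma adjusted p = 0.137). It was -0.31 without the Ppara-/- male 6 and the Ppara+/+ female 7, with a limma adjusted p of 0.180.

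Among Ppara+/+ pups, the female 7 and the male 2 held the top pair of values for each of the 3 Acsm genes. They read 10.91 and 10.85 for Acsm1, 10.09 and 10.08 for Acsm3, and 9.75 and 9.60 for Acsm5, whereas the female 8 read 10.68, 9.81 and 8.94 for the same genes. In Ppara-/- livers the highest pup was the female 12 for Acsm1 and Acsm5, at 11.003 and 9.03, and the male 6 for Acsm3, at 9.67. The female 7 had the lowest average of red cell precursor markers among Ppara+/+ pups, 11.43, and the highest of Kupffer cell markers, 10.43. The male 2 averaged 11.70 and 10.23 for these lists, and the part of cell composition in the Acsm values was not tested.

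**Figure D2:**
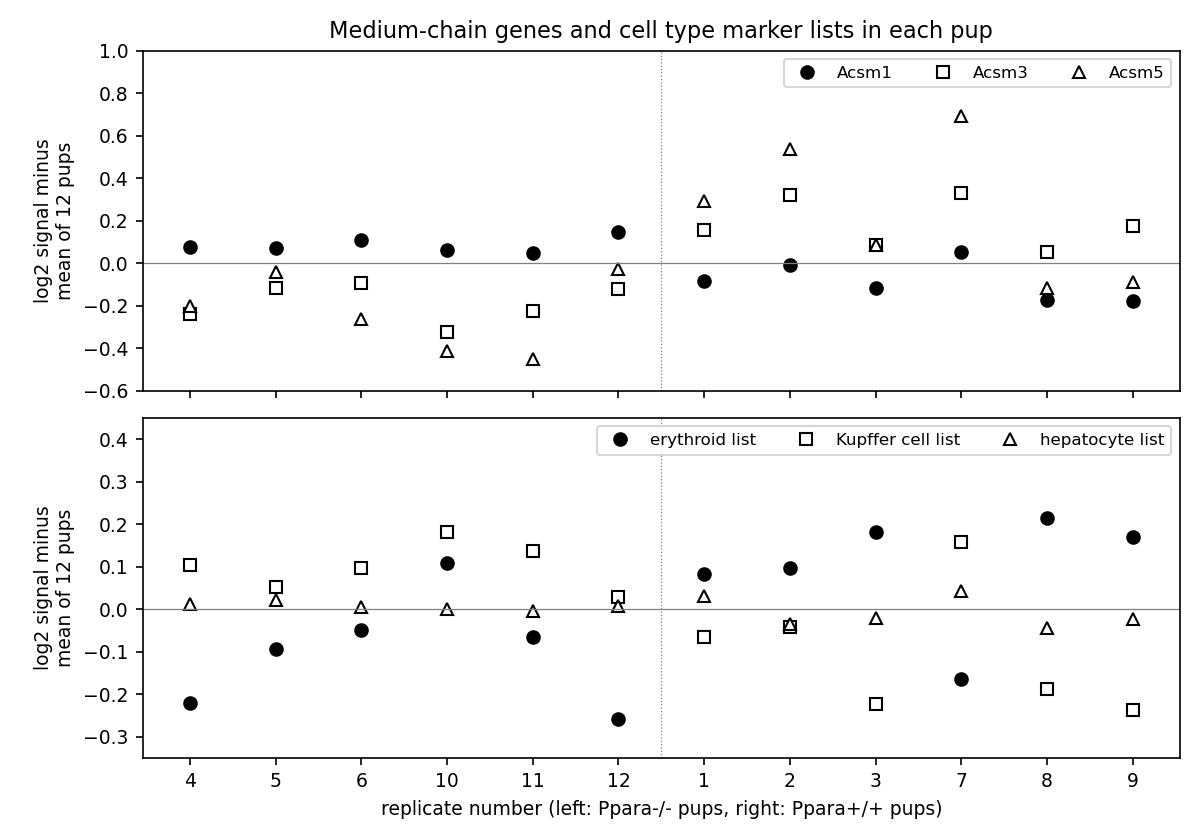
Log2 signal minus the mean of the 12 pups for Acsm1, Acsm3 and Acsm5 (upper panel) and for the averages of 3 cell type marker lists (lower panel), with Ppara-/- pups left and Ppara+/+ pups right of the dotted line and replicate numbers on the horizontal axis. Acsm1 is above and Acsm3 below their own means in all 6 Ppara-/- pups, Ppara+/+ pups 2 and 7 stand highest within their genotype for all 3 Acsm genes, and the hepatocyte list hardly moves.

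Within each pup, Acsm1 minus Acsm3 ran from 1.28 to 1.48 in Ppara-/- livers and from 0.74 to 0.90 in Ppara+/+ livers, with no overlap between the genotypes. The log2 fold changes of Acsm1 and Acsm3 differed by 0.55 (95% interval 0.45 to 0.64), and those of Acsm1 and Acsm5 by 0.64 (95% interval 0.37 to 0.90). Both had an exact permutation p of 0.00216, adjusted 0.00361 over the 5 pairs. For Acsm1 and Acsm3 this p could take no other value. The ranges of these genes in each genotype separate their differences however the values of pups are paired. The p for Acsm1 and Acsm3 therefore adds no support to the single-gene fits, in which Acsm1 did not pass. Acsm1 minus Acsm5 ran from 1.91 to 2.30 in Ppara-/- livers and from 1.16 to 1.74 in Ppara+/+ livers. For Acsm3 and Acsm5 the difference was 0.09 (95% interval -0.16 to 0.35, exact permutation p = 0.426, adjusted 0.533), which leaves room for unequal changes of either sign.

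**Figure D3:**
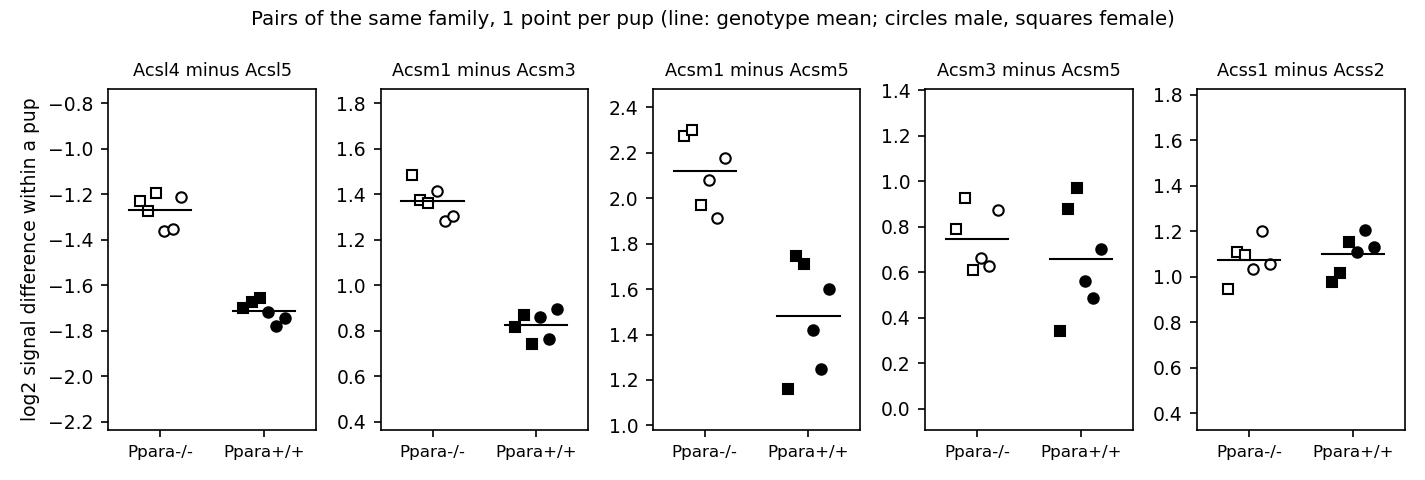
Difference in log2 signal between 2 genes of a family within each pup (vertical axes), for the 5 pairs with both genes measured, with Ppara-/- pups as open and Ppara+/+ pups as filled symbols, circles for males, squares for females and lines for genotype means. The genotypes separate for Acsl4 minus Acsl5, Acsm1 minus Acsm3 and Acsm1 minus Acsm5, and overlap for Acsm3 minus Acsm5 and Acss1 minus Acss2.

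The Acsm genes are neighbours on chromosome 7, in the order Acsm5, Acsm2, Acsm1, Acsm4, Thumpd1 and Acsm3 among the genes of this stretch with a probe set of their own (order from RefSeq, GRCm38.p6). The changes did not follow this order: the log2 fold changes were -0.47, -0.16, 0.17, -0.09, 0.01 and -0.37 along it, and of these only that of Acsm3 passed the test. Acsm2 and Acsm4, medium-chain synthetases too, had mean signals of 4.55 and 5.48, below the median of every array. Their adjusted p values were 0.318 and 0.681 by limma. The probe sequences were not examined for matches to related genes.

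The short-chain genes did not pass the test. Acss1, which makes acetyl-CoA from acetate in mitochondria, read 9.83, 9.94 and 10.14 (probe set 10488482) in Ppara-/- livers and 9.89, 9.98 and 10.10 in Ppara+/+ livers. The log2 fold change was -0.02 (95% interval -0.15 to 0.12, limma adjusted p = 0.94), and the ranges overlapped. Acss2, the enzyme of cytosol and nucleus that supplies acetyl-CoA for lipid synthesis and histone acetylation, read 8.76, 8.87 and 9.06 (probe set 10477649) in Ppara-/- livers and 8.84, 8.90 and 8.92 in Ppara+/+ livers. Its log2 fold change was 0.01 (95% interval -0.11 to 0.13, limma adjusted p = 0.959). The Ppara-/- pups were spread on both sides of the Ppara+/+ pups, with the male 6 at 9.06 and the female 12 at 9.04 above them. These same pups read 10.12 and 10.14 for Acss1, the highest values of that gene.

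The log2 fold changes of Acss1 and Acss2 differed by -0.03 (95% interval -0.13 to 0.08, exact permutation p = 0.604 before and after adjustment over the 5 pairs).

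Acsf2 encodes a mitochondrial medium-chain synthetase that stands outside the Acsm family. Its probe set (10390032) read 9.92, 9.98 and 10.05 in Ppara-/- livers, against 10.08, 10.24 and 10.42 in Ppara+/+ livers. The Ppara-/- pups formed a narrow band just under the lowest Ppara+/+ pup, the female 9. The means were 9.99 ± 0.05 in Ppara-/- and 10.24 ± 0.14 in Ppara+/+ livers, a log2 fold change of -0.26 (95% interval -0.38 to -0.13), or 1.19-fold lower, with a limma adjusted p of 0.0435. The fold change was -0.22 in females and -0.30 in males. The call was lost when any of the 6 Ppara-/- pups or Ppara+/+ pup 1, 2 or 8 was left out, with adjusted p values from 0.0344 to 0.0982 over all 12 omissions and log2 fold changes from -0.29 to -0.22. Markers of red cell precursors were also lower in the mean in Ppara-/- livers, and their part in the lower signals of Acsl5, Acsm3 and Acsf2 was not tested.

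A second probe set (10492426) also names Acsf2 alone, and read 9.75 to 9.86 in Ppara-/- livers and 9.85 to 10.20 in Ppara+/+ livers. Its log2 fold change was -0.23 (SE 0.0551) with a limma adjusted p of 0.0549, and the genotypes overlapped. Acsf2 is a gene of chromosome 11, as are the neighbours of the first probe set in the numbering of the array. The neighbours of the second, among them Gmps, Kcnab1 and Tiparp, are genes of chromosome 3, so which locus it reads is not settled here.

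None of the 8 genes differed in its genotype effect between the sexes after adjustment or at an unadjusted p under 0.05, by limma. Over all genes these shares were 0% and 1.79%. Between males and females over both genotypes, 0 of 8 passed either threshold, against 0.0401% and 2.78% of all genes. Within neither sex did any of the 8 pass by limma, with adjusted p values from 0.102 in females and from 0.184 in males. Each of these contrasts set 3 pups per genotype against each other, with a spread pooled over both sexes. The share of all genes that passed within a sex is not given here, so whether this count is unusual cannot be told.

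Among the 15 other acyl-CoA synthetases, all measured, 2 were lower in Ppara-/- livers and none higher. Acss3, a mitochondrial synthetase that prefers propionate, had a log2 fold change that exceeded in size that of each of the 8 genes. It read 6.37 to 6.86 in Ppara-/- livers and 7.58 to 8.24 in Ppara+/+ livers, so that it fell under the median signal of every array in Ppara-/- livers. The means were 6.58 ± 0.16 in Ppara-/- and 7.83 ± 0.26 in Ppara+/+ livers, a log2 fold change of -1.25 (SE 0.119), or 2.38-fold lower, with a limma adjusted p of 1.6e-04. The short-chain family held Acss3, which fell, beside Acss1 and Acss2, which did not pass. Their differences from Acss3 were not tested. Slc27a2, which takes up long-chain acids and activates very long ones, read 13.22 to 13.28 in Ppara-/- livers and 13.35 to 13.48 in Ppara+/+ livers, a log2 fold change of -0.19 with a limma adjusted p of 0.0085. The other 13 of these genes had log2 fold changes between -0.16 and 0.15.

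**Figure D4:**
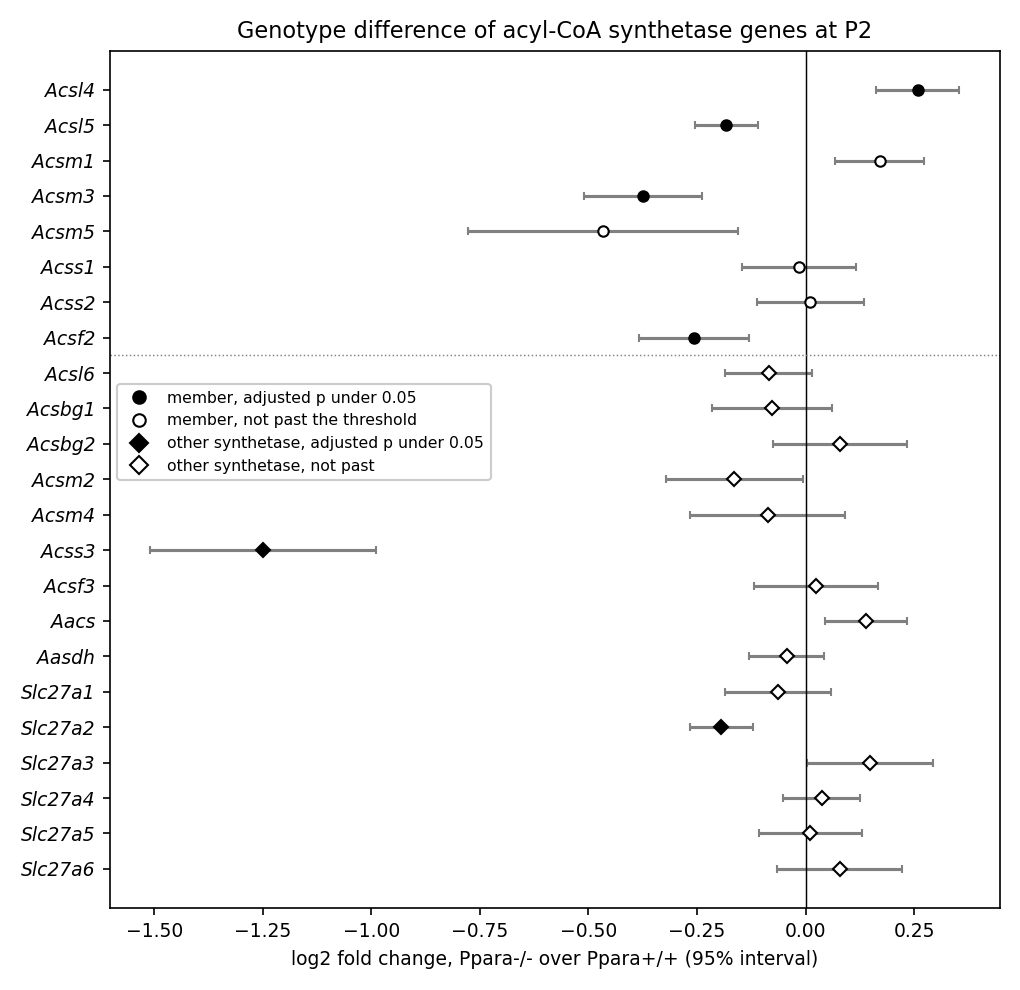
Log2 fold change, Ppara-/- over Ppara+/+, with 95% intervals for the 8 measured synthetases (circles, above the dotted line) and 15 further synthetase genes (diamonds), filled where the adjusted p was under 0.05. Acsl4 lies right of 0, Acsl5, Acsm3 and Acsf2 lie left of it, and Acss3, at -1.25, stands far to the left of all others.

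The proteins that bind, use or remove acyl-CoA, and others of the same routes, were read from further lists. Of 7 acyl-CoA binding proteins, Acbd5, which sits in the peroxisome membrane, fell by 0.41 on the log2 scale (limma adjusted p = 0.0023), and Dbi, the general acyl-CoA binding protein, rose by 0.21 (limma adjusted p = 0.0162, and 0.0512 without Ppara-/- pup 11). Of 12 measured genes for acyl-CoA use in mitochondria, 5 were lower and none higher, among them the carnitine carrier Slc25a20 (-0.89), the very long-chain dehydrogenase Acadvl (-0.74) and the short-chain dehydrogenase Acads (-0.39). Of 11 measured genes for glycerolipid and ester synthesis, 0 passed in either direction by limma, 3 had an unadjusted p under 0.05 (17.2% of all genes did), and the median of the 11 was 0.05. The thioesterases, which split acyl-CoA back into acid and coenzyme A, had 4 of 12 higher and 1 lower. Acot1 rose by 1.65, Acot2 by 0.79 and Acot4 by 0.31, while Acot12, which splits acetyl-CoA in the cytosol, fell by 0.25, and Acot1 and Acot2 are near-identical copies whose signals may mix.

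Around acetate, Acacb, which makes malonyl-CoA at mitochondria, rose by 0.72 and Acly, which makes acetyl-CoA from citrate, by 0.34, 2 of 8 measured genes, while Acss2 in the same route did not pass. Of 8 measured sterol-regulated genes, a group to which Acss2 is often assigned, 4 were higher, among them Idi1 (0.68), Sqle (0.47) and Hmgcs1 (0.47), and 1 was lower, the stearoyl-CoA desaturase Scd1 (-0.80). Of 8 measured genes known as PPARα targets, 7 were lower, with a median of -1.09. Among them were Vnn1 (-2.94), Cyp4a14 (-2.65) and Cyp4a10 (-2.35), and probe matches between the related Cyp4a14 and Cyp4a10 were not examined. Of 7 genes for propionate and branched short acyl-CoA, not all of them downstream of Acss3, 0 passed by limma. An unadjusted p under 0.05 was found for 1, near the 17.2% of all genes, and the median was 0.00.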

How the data were processed

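RNA from whole liver of 12 pups was hybridised by the authors to Affymetrix Mouse Gene 1.0 ST arrays after selection for an RNA integrity number above 8. The authors deposited 1 log2 signal for each probe set and array, computed by RMA (version not given in the sources used here), and they were used as deposited. Gene names came from the platform annotation: 21789 of 35556 probe sets name 1 gene, 1621 several and 12146 none, and only the first kind was used. Each probe set was fitted with limma 3.58.1 in R 4.3.3 (lmFit and eBayes, genotype and sex as terms, 9 residual and 2.49 prior degrees of freedom), with Benjamini-Hochberg adjustment across the whole table. Genotype by sex came from a fit with the interaction. Pairs within a family were compared by an exact two-sided permutation test of within-pup differences. Scripts were tested on simulated data.

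The 8 measured synthetases were named in full, with Ppara and up to 3 genes per direction of each further list, smallest p first. The rule that picks the genes uses no measured value, but the genes and lists were chosen with earlier results of these data known. Alternatives were other normalizations, filters, covariates and tests and the omission of each pup. The GC, CCAAT and TATA boxes were added after the sequences were seen. Precision is limited by the number of pups, and p-values measure the spread between pups, some of them littermates.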

Additional observations from a re-analysis of the deposited data

How the results depend on the processing

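The number of synthetases lower in Ppara-/- livers, 3 by limma with genotype and sex, was 2 in the fit of 4 groups, with median centring and without Ppara-/- array 6 and Ppara+/+ array 7 together, each time through the loss of Acsf2, and 2 to 3 over the 12 omissions of 1 pup. The number higher, 1, was 2 through the gain of Acsm1 without probe sets below the 40th percentile, with a robust variance trend, with array weights and without arrays 6 and 7 together (the lowest mean correlations, a pair chosen after seeing the data), and 1 to 2 over the omissions, with 2 without Ppara+/+ pup 7. The limma adjusted p of Acsm1 under these settings ran from 0.0190 to 0.0428. Both counts were 0 with a limit of 1.3-fold. Both were also 0 by the exact Mann-Whitney test, as was the count over all probe sets, although 4922 had an unadjusted p under 0.05. Its smallest possible p with 6 pups per genotype, 0.00216, became 0.0691 after adjustment. This test could therefore call no gene here. In the other 22 of 24 alternatives, Acsl4, Acsl5 and Acsm3 kept their calls, with adjusted p values up to 0.0263, 0.0394 and 0.0238. Acsf2 lost its call in 14 of 24, and Acsm5 never passed. No log2 fold change of these genes that passed the test changed sign. The 3 of 5 pairs with unequal changes were counted in every alternative run for them. For Acsl4 and Acsl5 this follows from their lack of overlap, and for Acsm1 and Acsm3 from the ranges of both genes. These alternatives are therefore no check on either pair. Quantile normalization and median centring moved the median of all genes by 0.0045 and 0.0056. No paired analysis was possible because litter is not in the labels. Pups number 6 per genotype.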

Other observations

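The spread between pups differed in size between the genotypes for some synthetases, which is given here as values without a test. The SD of Acss2 was 0.13 in Ppara-/- livers and 0.03 in Ppara+/+ livers, and that of Acsl4 was 0.09 in Ppara-/- and 0.03 in Ppara+/+ livers. The reverse held for Acsm1, at 0.04 in Ppara-/- and 0.09 in Ppara+/+ livers, for Acsm5, at 0.18 in Ppara-/- and 0.33 in Ppara+/+ livers, and for Acsf2, at 0.05 in Ppara-/- and 0.14 in Ppara+/+ livers. In the 18 groups of 6 pups examined (9 probe sets in each genotype), no single pup stood apart by Dixon's criterion.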
